A study of Mus musculus with 12 samples.

Results

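The genes described here are the numbered keratins of the mouse: the 52 gene names on the array made of Krt, a number and at most one further letter, out of 34650 gene names in all. The keratin-associated proteins (Krtap), a separate family of hair matrix proteins, were left out. The 52 keratins had 68 probes of 60 bases, and 14 of them had several. Each gene was read from its brightest probe, the one with the highest mean over the arrays. The array's names were matched through their transcript accessions to RefSeq, where 50 of the 52 were found and 49 carried the same symbol. The exception, Krt83 on the array, is named Krt87 in RefSeq.

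The study asked how hair follicle stem cells differ in young mice, old mice and mice without Col17a1, the hemidesmosomal collagen that ties basal keratinocytes to the basement membrane. It holds 12 one-colour microarrays, 1 for each group. Hair follicle stem cells (HFSC), sorted as CD34 high, ITGA6 high and SCA1 negative, came from young mice of 8 weeks, from aged mice of at least 22 months, and from 12-week-old mice given tamoxifen intraperitoneally, 2 mg for 5 days. The tamoxifen-treated mice were either wild type (control) or a Col17a1 conditional knockout under the K14 promoter (cKO), so that both of these groups carry the drug treatment and the young and aged mice do not. The strain is given as C57BL/6 for every group except the cKO. Each of the 4 kinds of mouse gave an array of unplucked HFSC and an array of HFSC taken 3 days after the hair was pulled out by hand. Young and aged mice also gave total epidermis and interfollicular epidermis (IFE, sorted as ITGA6 high and SCA1 high). The labels do not say how many animals stand behind an array.

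Every value below is a log2 level, the log2 of a probe's processed signal minus the 75th percentile of its array, and a difference between such levels is a log2 difference. Levels compare arrays for 1 probe and do not rank genes. A probe counts as measured where the scanner software marked it well above background, as it did for 49.71 to 64.97% of spots per array. The lowest level so marked ran from -5.07 in unplucked control to -3.01 in unplucked cKO HFSC. Being measured on 1 array and not on another is thus not by itself a difference in level. The spread comes only from the additive models, in which pairs of single arrays stand in for replicates, and p-values measure the spread between these arrays, which may be technical. The sorted cells carried the markers of their gates. Cd34 ran from 3.62 to 6.68 on the 8 HFSC arrays, against -3.04 on young IFE and a signal not well above background on aged IFE. Ly6a, which encodes SCA1, was 4.37 and 3.69 on young and aged IFE and at most 0.30 on the HFSC arrays. Itga6 was well above background on all 12. The only Col17a1 probe read 7.31 in control and 7.0 in cKO HFSC, and 6.22 and 5.79 after plucking. That difference of -0.37 ± 0.39 (SE, limma adjusted p = 0.923) does not check the cKO label, because the sources used here do not say which exons were removed. The arrays are called cKO below as labelled.

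Keratins build the intermediate filaments of epithelial cells, always as pairs of a type I and a type II protein. Basal keratinocytes make Krt5 and Krt14 and switch to Krt1 and Krt10 as they move up and differentiate. The hair follicle adds its own sets for the bulge, the companion layer, the inner root sheath and the hair shaft, and Krt6, Krt16 and Krt17 appear in the follicle and in wounded or stressed epidermis. The array's mapping (mouse build mm9) placed 26 of the 27 type I genes on chromosome 11 and 23 of the 24 type II genes on chromosome 15. The type I exception is Krt18, which lies on chromosome 15 beside the type II cluster, and the remaining type II gene, Krt85, has an unmapped probe.

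Because keratins are close relatives, some probes share long stretches. Among the pairs of probes of different keratins that were compared, 3 pairs were at least 75% identical over at least 30 aligned bases. The closest joins the hair shaft keratins Krt81 and Krt83, whose probes read as follows, with the run of 24 bases common to both in capitals.
Krt81: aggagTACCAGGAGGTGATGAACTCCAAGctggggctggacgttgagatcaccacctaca
Krt83: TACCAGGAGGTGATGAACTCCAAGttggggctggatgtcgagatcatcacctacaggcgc
They matched at 51 of 55 aligned bases. Both were measured on all 12 arrays, as were only Krt32 and Krt85 among the remaining hair shaft keratins. Whether each probe takes up signal from its relatives was not tested. Probes of 1 gene could also disagree. The other probes of Krt85 were measured on 11 and on 0 arrays and correlated with the brightest at r = 0.20 and -0.08 over the 12 arrays. Krt42, of no assigned layer, had its other probe measured on 3 arrays and r = -0.03.
The brightest Krt6b probe lists transcripts of both Krt6b and Krt6a in the array's own annotation. It is shown with the second probe of Krt5, the basal type II keratin, which it matched at 38 of 47 aligned bases. The capitals mark the run of 12 bases that both hold.
Krt6b: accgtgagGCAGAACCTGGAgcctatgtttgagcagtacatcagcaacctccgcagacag
Krt5: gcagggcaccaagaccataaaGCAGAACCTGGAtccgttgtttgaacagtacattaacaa
The brightest probe of Krt222, a short keratin-like protein, holds a dinucleotide repeat, in capitals in the 30 bases shown.
Krt222: ttgtACACACACACACACACACACACccgg
It read between 7.45 and 8.35 on the 12 arrays, while the gene's other probe was not well above background on any. On the whole array 110 probes hold at least 8 units of this repeat on either strand. Their median level was 8.95, against -2.83 for all 55681 probes, so the Krt222 value is not read as expression here.

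Of the 52 keratins, 23 were well above background on all 12 arrays, 22 on some and 7 on none. The 23 include Krt222, which also stays in the counts and medians of tested keratins below. The 7 were Krt9 and Krt76 of thick or oral epithelium, Krt25 of the inner root sheath, and the hair shaft keratins Krt33b, Krt34, Krt39 and Krt84. Both basal keratins, 6 of 9 suprabasal, 2 of 8 inner root sheath and 4 of 15 hair shaft keratins were measured on every array. The Krtap genes split in the same way into 18, 15 and 19 of 52.

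**Figure D1:**
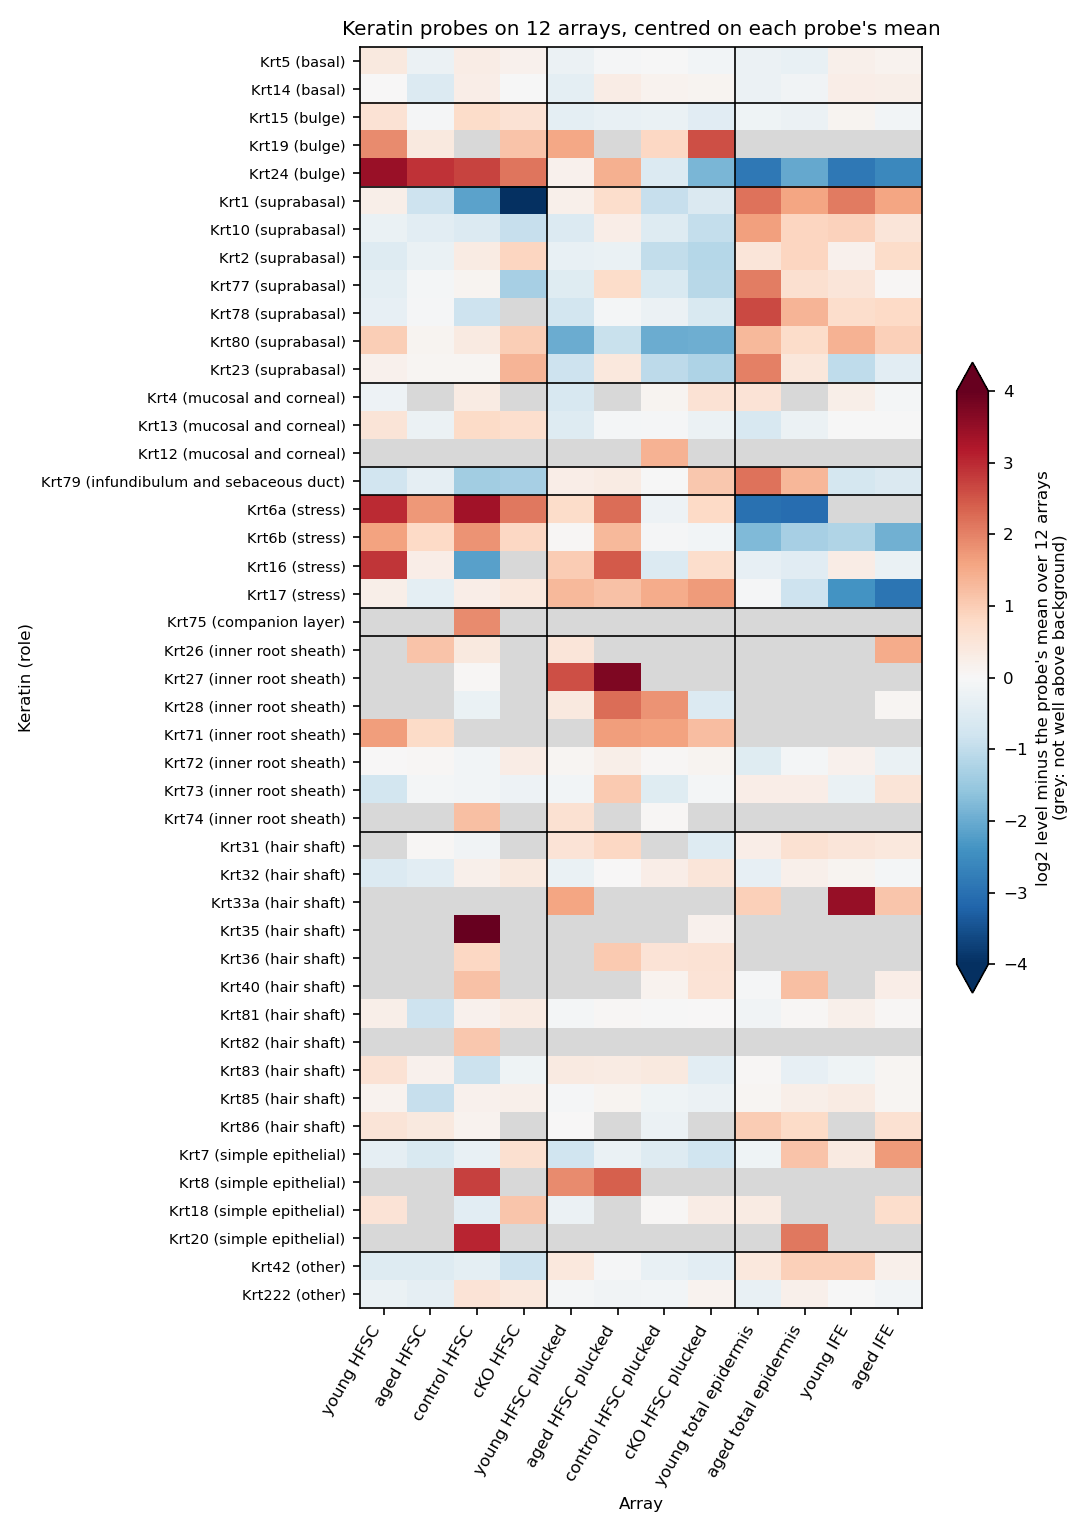
Heat map of the 45 keratins measured on at least 1 array (rows, by role) on the 12 arrays (columns), coloured by the log2 level minus the probe's own mean over the 12 arrays, with grey where the probe was not well above background. Krt5 and Krt14 stay near white on every array, and Krt24 is red in unplucked HFSC and blue in both epidermal populations. Some hair shaft and inner root sheath rows, such as Krt35 and Krt27, are mostly grey, and others, such as Krt81 and Krt72, have no grey.

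The basal pair was nearly constant. Krt5 read 8.83, 8.20, 8.73 and 8.61 in unplucked young, aged, control and cKO HFSC, 8.19, 8.39, 8.40 and 8.32 after plucking, 8.18 (young) and 8.12 (aged) in total epidermis, and 8.63 (young) and 8.56 (aged) in IFE. Its whole range over the 12 arrays was 0.71. Krt14 read 8.36, 7.80, 8.59 and 8.31 in unplucked young, aged, control and cKO HFSC, 7.94, 8.62, 8.49 and 8.46 after plucking, 8.10 (young) and 8.20 (aged) in total epidermis, and 8.60 (young) and 8.56 (aged) in IFE, a range of 0.82. Neither passed the test in any comparison. The second Krt5 probe followed the first (r = 0.85 over 12 arrays that share 2 slides, as a description). Krt15, a type I keratin used as a marker of bulge cells, was also present everywhere. It read 6.81, 6.18, 6.97 and 6.81 in unplucked young, aged, control and cKO HFSC and 5.84, 5.93, 5.99 and 5.80 after plucking. Total epidermis gave 6.06 and 6.02, and IFE 6.36 and 6.14, in young and aged mice. The difference of IFE from HFSC was -0.25 ± 0.30 (adjusted p = 0.704), and the Krt15 probe thus did not separate the sorted populations.

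The comparison of IFE with HFSC asks which keratins mark the follicle stem cells against the epidermis between follicles. It was fitted on the 6 unplucked arrays of young and aged mice, with population and age as terms. Each population held the same column of the slide in both ages, so population and column cannot be told apart. Of 35 keratins tested, 1 was higher in IFE and 5 were lower at a limma adjusted p under 0.05. Over all 23916 genes tested, 4.76% passed, 2.11% higher and 2.65% lower. The median difference was 0.24 for the keratins and 0.09 for all genes. Total epidermis was compared with the same 2 HFSC arrays, so the 2 comparisons are not independent. There 1 keratin was higher and 4 were lower, where 3.91% of all genes passed, 1.89% higher and 2.02% lower, with a median of 0.41 for keratins and 0.07 for all genes.

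Krt24, a type I keratin found in the bulge, had the largest keratin difference with both sides measured. Its probe (mm9 chr11:99143994-99144053) has this sequence, shown because that difference rests on it alone.
Krt24: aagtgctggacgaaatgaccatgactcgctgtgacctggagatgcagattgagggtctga
The log2 level was 5.26 in young and 4.70 in aged HFSC, -1.05 in both young IFE and young total epidermis, -0.76 in aged IFE and -0.23 in aged total epidermis. All 4 epidermal arrays lay below both HFSC arrays, and the probe was measured on all of them. Krt24 was 59.1-fold lower in IFE than in HFSC (log2 difference -5.88 ± 0.42, adjusted p = 0.011). In total epidermis it was 49.1-fold lower (-5.62 ± 0.42, adjusted p = 0.0196). The control and cKO HFSC arrays, which the fit did not use, read 4.51 and 3.95.

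Krt6a, a type II keratin of the companion layer, the inner bulge and stressed epidermis, followed. Young HFSC read 3.20 and aged HFSC 1.95, while total epidermis gave -2.77 (young) and -2.83 (aged). IFE gave -3.29 (young) and -3.99 (aged), neither of them well above background. With means of 2.57 in HFSC and -3.64 in IFE, Krt6a was at least 74.0-fold lower in IFE, a bound that takes each dim array at the higher of its own value and the lowest signal well above background (adjusted p = 0.00992). In total epidermis, where it was measured, it was 41.4-fold lower (-5.37 ± 0.38, adjusted p = 0.0194). Control and cKO HFSC read 3.57 and 2.32, within or just above the range of the young and aged HFSC arrays. The brightest Krt6b probe read 5.03 and 4.22 in young and aged HFSC, 2.24 and 1.50 in IFE, and 1.65 and 2.10 in total epidermis. It was 6.75-fold lower in IFE (adjusted p = 0.0417) and 6.73-fold lower in total epidermis (adjusted p = 0.0457). Over the 12 arrays it correlated with Krt6a at r = 0.98, a description of probes whose annotated transcripts overlap. The other Krt6b probe gave -4.17 ± 0.76 for IFE against HFSC, with adjusted p = 0.0586.

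Krt17, a type I keratin of the outer root sheath and of activated keratinocytes, differed between the epidermal populations as well as from HFSC. Its level was 5.39 and 4.75 in young and aged HFSC, 5.11 and 4.31 in total epidermis, and 2.75 and 2.22 in IFE. Total epidermis therefore read close to HFSC, with IFE alone below. Krt17 was 5.99-fold lower in IFE than in HFSC (-2.58 ± 0.27, adjusted p = 0.0188). The difference of IFE from total epidermis, -2.22 ± 0.27, was lower in both ages but had an adjusted p of 0.212, where 0 of 35 keratins and 0.0% of all genes passed. At an unadjusted p under 0.05 that comparison had 5 keratins and 974 genes. Krt19, a type I keratin of the bulge, was dim. It read -1.96 in young and -3.45 in aged HFSC and was not well above background on any epidermal array. It was at least 2.15-fold lower in IFE (adjusted p = 0.0292; means -5.60 and -2.70) and at least 3.06-fold lower in total epidermis (adjusted p = 0.0457; means -5.15 and -2.70). Krt19 was not measured in unplucked control HFSC, and it read -2.71 in cKO HFSC, so even unplucked HFSC arrays differed on it. After plucking it read -2.30 in young, -3.02 in control and -1.27 in cKO HFSC and was not measured in aged HFSC.

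Krt1, the type II keratin of the first suprabasal layers, was the only keratin called higher in both epidermal populations. Total epidermis read 5.66 (young) and 5.05 (aged), IFE 5.57 and 5.06, and HFSC 3.71 and 2.67. Krt1 was 4.36-fold higher in IFE (2.12 ± 0.29, adjusted p = 0.0336) and 4.48-fold higher in total epidermis (2.16 ± 0.29, adjusted p = 0.038). Its partner Krt10 read 5.62 and 4.84 in total epidermis, 4.91 and 4.48 in IFE, and 3.72 and 3.57 in HFSC. All 4 epidermal arrays lay above both HFSC arrays, with differences of 1.59 ± 0.30 (adjusted p = 0.0693) for total epidermis and 1.06 ± 0.30 (adjusted p = 0.152) for IFE. For total epidermis Krt10 passed with normexp and quantile scaling (adjusted p = 0.0285), where 5.92% of all genes passed. It also passed with only genes measured on all 6 arrays (adjusted p = 0.0285), where 6.19% did, and under none of the other alternatives. Krt78, another type II keratin of differentiated epidermis, read 1.62 and 0.36 in total epidermis and -1.34 and -1.06 in HFSC (2.19 ± 0.47, adjusted p = 0.0878). Of the alternatives, Krt78 passed only with genes measured on all 6 arrays (adjusted p = 0.0333). Krt2, a type II keratin of the upper epidermis, depended on the probe. The brightest gave 0.85 ± 0.27 for IFE against HFSC (adjusted p = 0.186). The other, measured on 7 arrays, read -0.81 and -0.28 in young and aged IFE and was not well above background in young and aged HFSC. By that probe Krt2 was at least 8.01-fold higher in IFE (adjusted p = 0.0369). The 2 Krt2 probes correlated at r = 0.19 over the 12 arrays.

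Krt79, a type II keratin of the infundibulum and sebaceous duct, was brightest in total epidermis, at 5.59 and 4.76 in young and aged mice. IFE read 2.74 and 2.85, and HFSC 2.68 and 3.07, so that the sorted IFE and HFSC arrays overlapped. The difference of total epidermis from HFSC was 2.30 ± 0.39 (adjusted p = 0.0565), and that of IFE from total epidermis -2.38 ± 0.39 (adjusted p = 0.361). The first of these passed with normexp and quantile scaling (adjusted p = 0.0278) and with only genes measured on all 6 arrays (adjusted p = 0.0184). It passed too with plucked HFSC arrays added (adjusted p = 0.034) and with the mean of all probes of each gene (adjusted p = 0.0494), but under no other alternative. Krt71, a type II keratin of the inner root sheath, read -2.56 and -3.47 in HFSC and was not well above background in any epidermal array (adjusted p = 0.0577 for total epidermis) or in unplucked control and cKO HFSC. After plucking it read -2.54, -2.61 and -2.98 in aged, control and cKO HFSC and was not measured in young HFSC. Krt33a, a type I hair shaft keratin, was -1.12 in young IFE, -3.49 in aged IFE and -3.65 in young total epidermis, and not well above background in young and aged HFSC and in aged total epidermis. Of the plucked HFSC arrays only the young one measured it, at -3.03, and unplucked control and cKO HFSC did not. Krt33a was at least 2.67-fold higher in IFE than in HFSC, short of the threshold (adjusted p = 0.0525). It passed without aged IFE (adjusted p = 0.0384) and with the mean of all probes of each gene (adjusted p = 0.0448), and normexp with quantile scaling gave 0.75 ± 0.31 (adjusted p = 0.252).

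**Figure D2:**
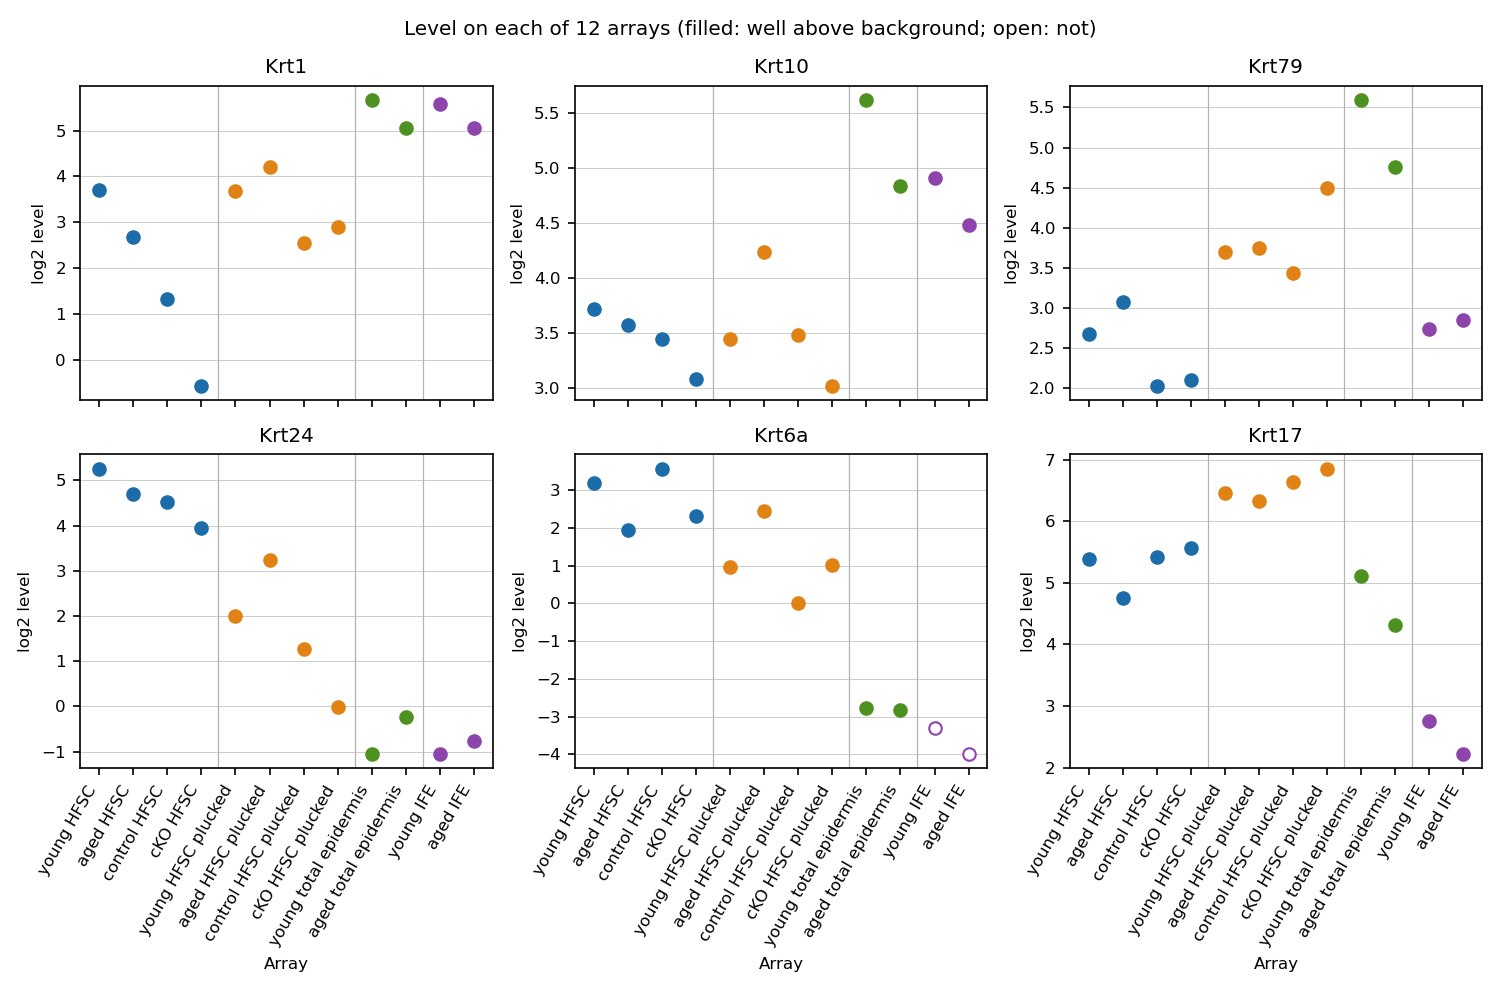
Log2 level (vertical axes) of Krt1, Krt10, Krt79, Krt24, Krt6a and Krt17 on each of the 12 arrays (horizontal axes), with 1 point per array, filled where well above background, and colours for unplucked HFSC, plucked HFSC, total epidermis and IFE. Krt24 and Krt6a are low on the 4 epidermal arrays, Krt17 is low only on the 2 IFE arrays, and Krt79 is highest in young total epidermis.

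The calls of single keratins rested on few arrays. Krt24 and Krt6a passed for IFE against HFSC whichever of the 6 arrays was left out. Krt1 lost that call whichever array was left out (adjusted p from 0.0554 to 0.207). Krt17 lost it without young IFE, aged IFE or aged total epidermis, Krt19 without any 1 of the 4 epidermal arrays (it was not tested without either HFSC array), and Krt6b without either HFSC or either IFE array, so that 2 to 4 keratins passed in place of 6. For total epidermis, 0 keratins and 0 genes passed without young HFSC, without young total epidermis or without aged total epidermis, and 2 or 3 keratins passed without each of the other arrays. The Krt24 difference there stayed between -6.18 and -5.06 over the 6 omissions. With normexp background correction and quantile scaling together, Krt19 had a difference of -0.54 ± 0.24 in IFE (adjusted p = 0.275) and -0.51 ± 0.24 in total epidermis (adjusted p = 0.288). In that setting Krt6a, which still passed, had smaller differences, of -4.12 ± 0.29 in IFE (adjusted p = 0.00445) and -3.91 ± 0.29 in total epidermis (adjusted p = 0.00631). Some markers of other cells moved with these contrasts. Of 6 fibroblast markers, Col1a1 and Col1a2 were lower in IFE and in total epidermis; 2 and 3 of the list were measured in young and aged HFSC and 1 or 2 on the epidermal arrays. The log2 of the list's summed level was 3.20 and 2.84 in HFSC and -1.37 to -0.78 on the 4 epidermal arrays. Most of that sum in HFSC was Col1a2, at 3.11 in young and 2.78 in aged HFSC. Col3a1 read -3.49 in both aged HFSC and young total epidermis, and Pdgfra and Lum were not well above background on any array. The T cell genes Cd3e and Cd3g were higher in total epidermis, where all 3 T cell genes on the array were measured and their summed level was 2.21 and 2.83, against -1.20 and -0.24 in HFSC. Of 6 melanocyte markers, Mitf was lower and Pmel higher in both epidermal populations, with summed levels of 2.00 and 1.81 in HFSC and 0.69 to 1.50 in epidermis; Mitf was also lower after plucking. Their part in the keratin differences was not tested.

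The 300-base promoter windows of 35 of the 52 keratins were found in RefSeq (GRCm38.p6), from 250 bases before to 50 bases after the start. Those without a window were Krt1, Krt4, Krt6a, Krt6b, Krt15, Krt16, Krt17, Krt19, Krt33a, Krt35, Krt74, Krt80, Krt81, Krt83, Krt85, Krt86 and Krt222. TATAAA, searched on both strands, was in 19 of 36 keratin windows (52.8%), against 13.6% of all 32851 windows. The AP-1 motif TGANTCA was in 5.6% of keratin windows (2, both of Krt13) and 7.8% of all windows. The TCF/LEF motif ATCAAAG was in 2.8% and 3.7%. Krt10 holds TATAAA, in capitals below, starting 26 bases before its start. Krt24, shown as the keratin with the largest difference between populations with both sides measured, holds none of the 3 motifs in these exact letters. Variants were not searched, and its window does hold TATATAAG before the start.
Krt10 (GRCm38.p6 chr11:99389315-99389614, minus strand): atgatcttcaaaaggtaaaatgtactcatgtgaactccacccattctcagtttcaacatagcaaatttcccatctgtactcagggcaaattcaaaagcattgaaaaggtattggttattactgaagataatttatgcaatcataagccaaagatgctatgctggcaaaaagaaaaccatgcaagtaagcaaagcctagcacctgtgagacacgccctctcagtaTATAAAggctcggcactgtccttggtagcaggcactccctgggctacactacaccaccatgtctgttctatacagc
Krt24 (GRCm38.p6 chr11:99285213-99285512, minus strand): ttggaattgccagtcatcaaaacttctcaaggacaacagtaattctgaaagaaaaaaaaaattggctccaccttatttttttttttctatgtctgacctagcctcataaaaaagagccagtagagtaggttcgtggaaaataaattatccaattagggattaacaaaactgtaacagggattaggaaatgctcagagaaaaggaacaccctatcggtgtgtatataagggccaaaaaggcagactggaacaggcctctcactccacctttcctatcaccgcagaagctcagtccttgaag
A match is a description of these letters and no evidence of binding.

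Plucking pulls the hair shaft out of the follicle and starts a new growth phase. Of 40 keratins tested between plucked and unplucked HFSC over the 4 kinds of mouse, 0 passed, and 7 had an unadjusted p under 0.05, against 4456 of all 25376 genes tested. Of those genes 0.5% passed, 0.394% higher and 0.106% lower. The keratins' median difference was 0.03 and that of all genes -0.06. Krt24 read 5.26, 4.70, 4.51 and 3.95 in unplucked young, aged, control and cKO HFSC and 2.00, 3.24, 1.26 and -0.02 after plucking. All 4 plucked arrays lay below all 4 unplucked arrays, and the fitted difference was -2.99 ± 0.46 (adjusted p = 0.0714). Krt80, a type II keratin of differentiating keratinocytes, read 4.90, 4.04, 4.28 and 4.91 before and 1.95, 3.03, 1.95 and 1.96 after plucking. Its groups did not overlap either, with a difference of -2.31 ± 0.41 (adjusted p = 0.0887). Krt17 had the opposite sign, with 5.39, 4.75, 5.42 and 5.57 before and 6.46, 6.33, 6.64 and 6.86 after plucking, again without overlap (1.29 ± 0.24, adjusted p = 0.0926). These 3 keratins passed when normexp and quantile scaling were used, and also when only genes measured on all 8 arrays were tested, with adjusted p from 0.014 to 0.0345. In these settings 4.42% and 4.23% of all genes passed.

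Krt79 read 2.68, 3.07, 2.03 and 2.10 in unplucked young, aged, control and cKO HFSC and 3.70, 3.75, 3.43 and 4.50 after plucking (1.38 ± 0.36, adjusted p = 0.158). Each plucked array was above each unplucked one. The bulge keratin Krt15 was lower in all 4 pairs, by differences of -0.97, -0.24, -0.98 and -1.01 (fitted -0.80 ± 0.26, adjusted p = 0.221). Krt28, a type I keratin of the inner root sheath, was not well above background in unplucked young, aged and cKO HFSC and read -3.90 in control HFSC. After plucking it was measured in all 4, at -3.26, -1.39, -1.83 and -4.19 (adjusted p = 0.128). The dim readings of unplucked young and aged HFSC, -4.07 and -3.77, lay above that of plucked cKO HFSC. The lowest level well above background was -4.33 in plucked cKO HFSC, against -3.70 in young and -3.74 in aged HFSC. Krt27, of the same layer, was measured after plucking only in young (-0.76) and aged (0.39) HFSC. In control HFSC it was measured only before plucking, at -3.30. The test of plucking between the 2 slides, with young and aged on one and control and cKO on the other, called 0 keratins and 0.0% of genes, with 5 keratins and 1439 genes at an unadjusted p under 0.05. Krt27 had the smallest p among keratins (adjusted p = 0.793), and no difference is given for it, because it was measured on 3 of the 8 HFSC arrays.

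**Figure D3:**
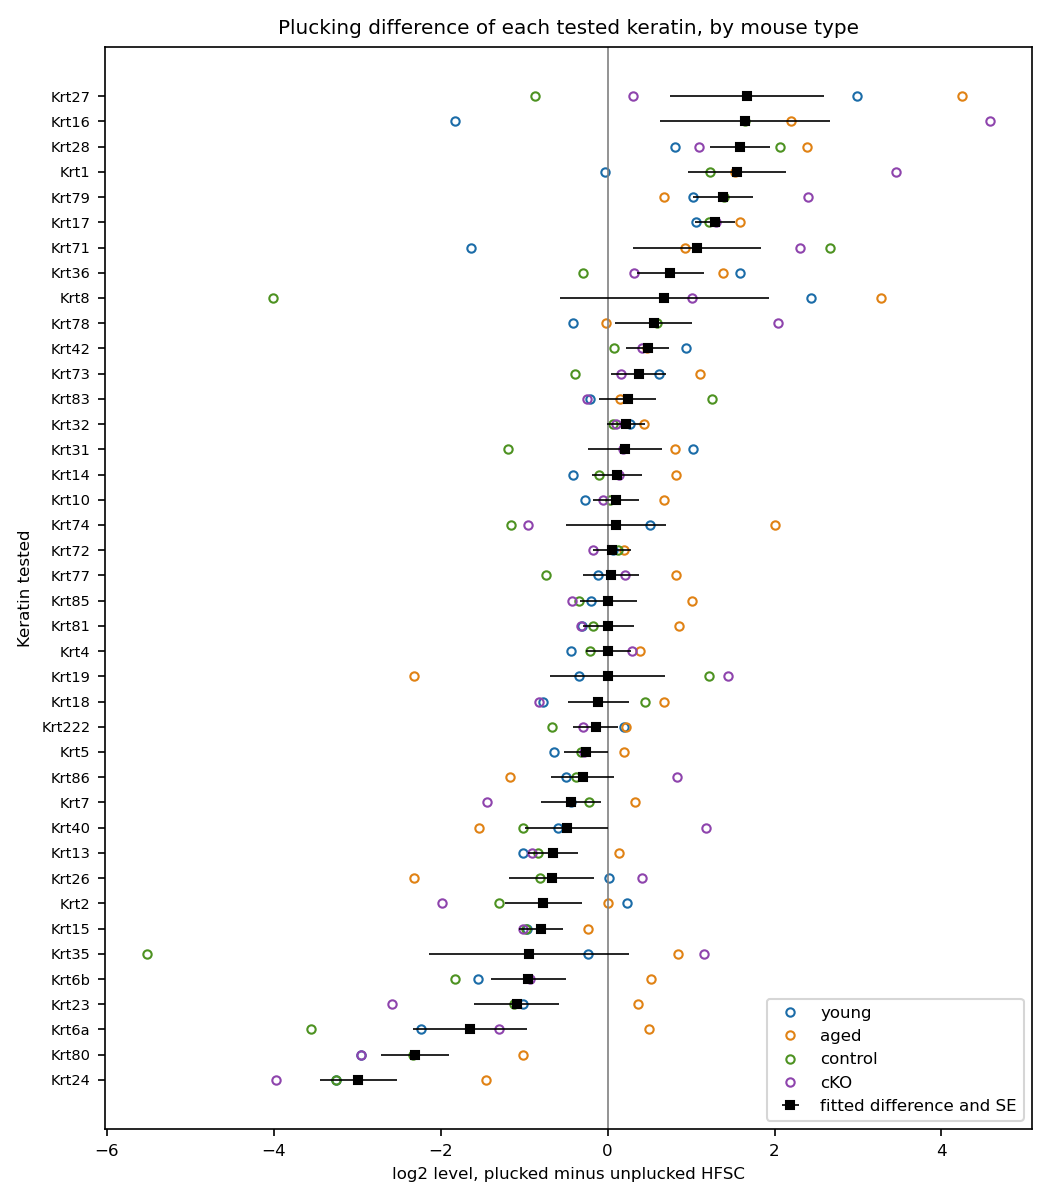
Difference in log2 level between plucked and unplucked HFSC (horizontal axis) for each of the 40 tested keratins (vertical axis), with 1 open circle for each kind of mouse and a square with its SE for the fitted value. Krt24 and Krt80 lie below 0 and Krt17, Krt28 and Krt79 above 0 in all 4 pairs, while Krt16, Krt8 and Krt35 spread over both sides.

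The stress keratins did not move as 1 group. Krt6a read 3.20, 1.95, 3.57 and 2.32 in unplucked and 0.96, 2.44, 0.02 and 1.02 in plucked young, aged, control and cKO HFSC, lower after plucking in 3 pairs and higher in the aged pair (-1.65 ± 0.68, adjusted p = 0.299). Krt16, the type I partner of Krt6 in stressed epidermis, differed widely among unplucked HFSC. It was 2.51 in young, -0.07 in aged and -2.52 in control HFSC, and not well above background in cKO HFSC. After plucking it read 0.69, 2.12, -0.88 and 0.38, and the fitted difference, which takes the dim cKO array at its own reading, was 1.65 ± 1.02 (adjusted p = 0.456). The second Krt6b probe ran alongside Krt16 on these arrays. It was 2.54 in young and -0.34 in aged HFSC, not well above background in control and cKO HFSC, and 0.43, 2.03, 0.38 and 0.39 after plucking. The brightest Krt6b probe, by contrast, read 5.23 in control and 4.26 in cKO HFSC, and 3.48, 4.74, 3.39 and 3.33 after plucking. Control and young HFSC differ in age, tamoxifen and slide, which cannot be told apart. For control against young HFSC, Krt16 had a difference of -3.30 ± 1.45 (adjusted p = 0.576).

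**Figure D4:**
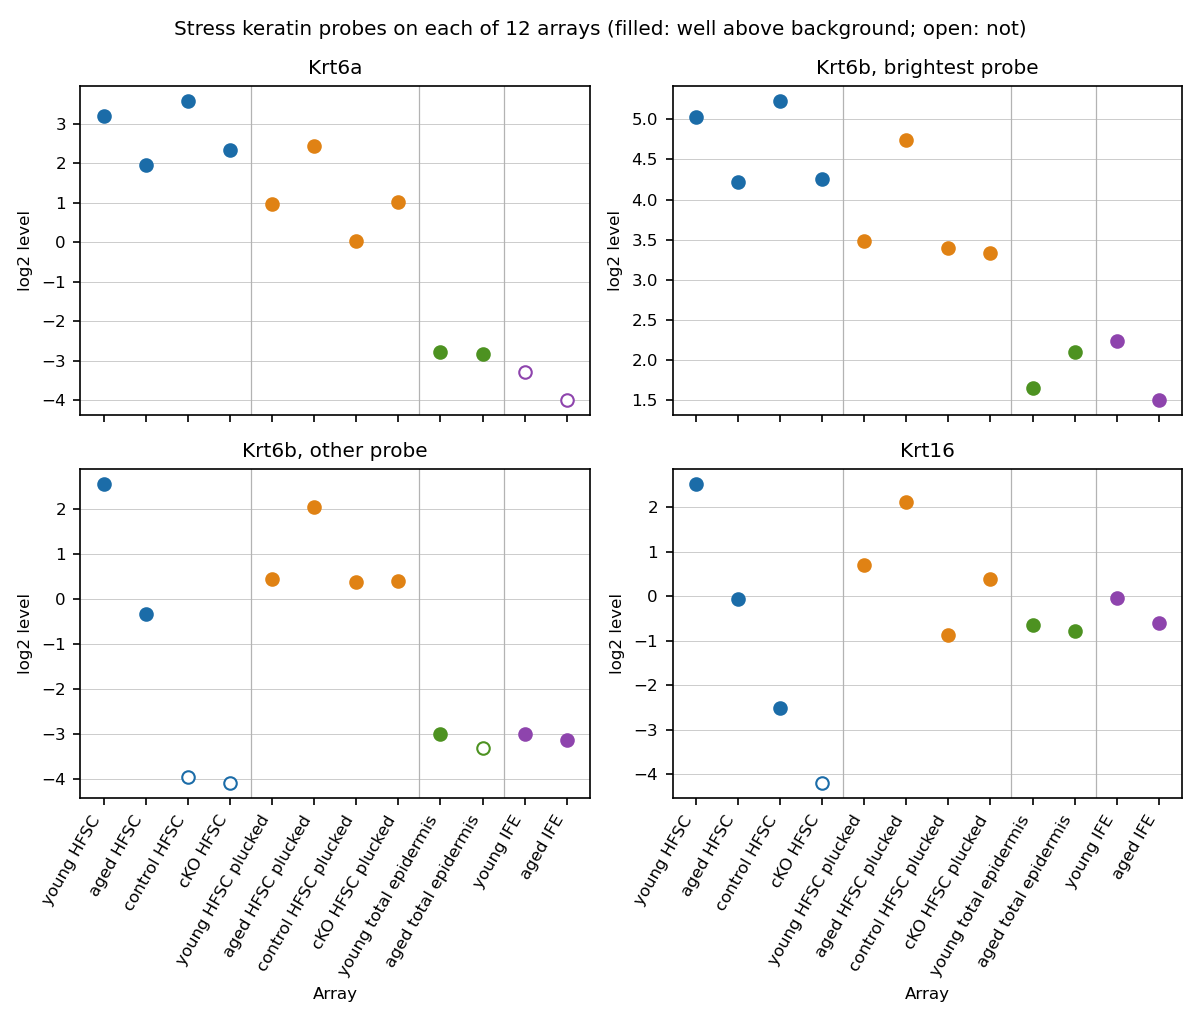
Log2 level (vertical axes) of Krt6a, of both Krt6b probes and of Krt16 on each of the 12 arrays (horizontal axes), with 1 point per array, filled where well above background. The brightest Krt6b probe has the shape of Krt6a, and the other Krt6b probe is open at -3.97 and -4.10 on unplucked control and cKO HFSC, where Krt16 is also at its lowest.

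Age and Col17a1 deletion were tested across plucked and unplucked HFSC, and 0 of 40 keratins and 0.0% of genes passed for aged against young, for cKO against control and for control against young. At an unadjusted p under 0.05 there were 1, 1 and 0 keratins, and 1226, 1643 and 2221 genes. Young arrays filled one row of their slide and aged arrays the other, so an effect of age and one of position cannot be told apart. In single pairs of arrays no test is possible. For these counts a gene was measured where either array of the pair was well above background. A gene counted as 2-fold apart needed only its brighter array so marked. For unplucked aged against young, 7 of 33 measured keratins (21.2%) were at least 2-fold apart, all lower in aged. Of all genes 30.0% were, in either direction. The median difference of that pair was -0.55 for keratins and 0.05 for all genes. In the plucked pair there were 14 of 39 (35.9%), 11 higher and 3 lower, against 20.0% of genes in either direction. The medians of the plucked pair were 0.3 for keratins and 0.03 for all genes. For cKO against control the counts were 17 of 42 (40.5%, 14 of them lower in cKO) before plucking, against 38.5% of genes. Of the 14 lower in cKO, only Krt1, Krt6a and Krt77 were well above background on both arrays. After plucking the counts were 8 of 38 (21.1%), against 23.6%. Median differences were -0.41 for keratins and -0.13 for all genes before plucking, and -0.04 and 0.03 after. The unplucked cKO array had 26 keratins and 49.71% of its spots well above background, against 41 keratins and 59.97% for unplucked control HFSC. Young total epidermis, with the highest share of spots at 64.97%, had 32 keratins. The part of these shares in the pair counts was not tested.

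Krt19 had the smallest p among keratins for aged against young HFSC (adjusted p = 0.931), and Krt28 for cKO against control HFSC (adjusted p = 0.674). No difference is given for either, because Krt19 was not well above background in plucked aged HFSC and Krt28 was not in unplucked cKO HFSC. Krt1 was 1.33 in unplucked control and -0.56 in unplucked cKO HFSC, but 2.56 and 2.90 after plucking, so that the order of the pair turned. Plucked young and aged HFSC read 3.68 and 4.20. Krt10 read 3.45 and 3.08 in unplucked control and cKO HFSC, and 3.45, 4.24, 3.48 and 3.02 in plucked young, aged, control and cKO HFSC. In total and interfollicular epidermis, age gave 0 of 32 keratins and 0.0% of genes, with 2 keratins and 1488 genes at an unadjusted p under 0.05. Counted as in the HFSC pairs, keratins at least 2-fold apart between aged and young numbered 6 of 33 (18.2%) in total epidermis. In IFE they numbered 4 of 33 (12.1%), against 12.1% of genes in each population. Krt7, a type II keratin of simple epithelia, read -2.27 and -1.73 in young and -0.97 and -0.40 in aged total epidermis and IFE (1.31 ± 0.24, adjusted p = 0.606). The tests of whether age acts differently in epidermis and HFSC, and whether plucking acts differently in aged or cKO mice, also called 0 keratins and 0.0% of genes. They had 1 keratin each at an unadjusted p under 0.05, Krt77 and Krt6a, and 1322 and 1140 genes.

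Some keratins of the companion layer and shaft were measured on few arrays. Control HFSC alone read Krt75, of the companion layer, at -3.92 and Krt82 at -3.50. It also read the hair shaft keratin Krt35 at 0.43, which was otherwise measured only in plucked cKO HFSC, at -4.08. The lowest level well above background on the control HFSC array, -5.07, was below that of every other array. Young HFSC gave Krt82 at -3.82 without being marked well above background. The part of these limits was not tested. Krt20, known from Merkel cells, was -1.63 in control HFSC and -2.56 in aged total epidermis, and not well above background elsewhere. Krt8, a keratin of simple epithelia and Merkel cells, was measured on 3 arrays, at -2.14 and -1.65 in plucked young and aged HFSC and -1.28 in control HFSC. Its partner Krt18 was measured on 8 arrays, from -3.72 to -2.18, and not on that of plucked aged HFSC. Of 6 other Merkel cell markers, 2 or 3 were measured per array, and the defining Atoh1, Sox2 and Isl1 on none. The log2 of the list's summed level was 1.26 to 2.15. Krt13 and Krt4 are partners in mucosal epithelium. Krt13 was bright on all arrays by both of its probes, from 6.65 to 8.06 for the brighter, while Krt4 was measured on 8 arrays at -3.90 to -2.68.

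Among genes that work with keratins, calls came only from the comparisons of epidermis with HFSC, and 0 desmosome partners or regulators passed in the other fits. In those comparisons 4.76% (IFE) and 3.91% (total epidermis) of all genes passed. Of 23 tested desmosome and filament partners, Dsg1b, Dsg2 and Pkp1 were higher in IFE than in HFSC and 0 were lower. Dsg1b, a desmosomal cadherin, read 4.18 and 4.04 in young and aged IFE and 2.21 and 1.76 in HFSC (2.12 ± 0.28, adjusted p = 0.0316). In total epidermis Dsg1a, Dsg1b, Dsg2 and Vim, the mesenchymal and leukocyte filament vimentin, were higher. Of 17 tested regulators of keratin genes, Cux1, Foxn1, Klf5 and Tfap2c were higher and Hoxc13 was lower in both epidermal populations. Hoxc13, a regulator of hair keratins, read 0.38 and -0.20 in young and aged HFSC and was not well above background on the 4 epidermal arrays. It was measured on all 8 HFSC arrays, from -0.20 to 1.26, whereas 4 of the 15 hair shaft keratins were measured on no array. Of 25 tested Krtap genes 0 passed in either comparison.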

How the data were processed

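RNA from sorted or total epidermal cells was amplified, labelled with Cy3 and hybridised to 12 one-colour Agilent mouse arrays. Per the file headers, Feature Extraction made the deposited intensity values (background-subtracted processed signal, with flags for probes well above background and for outlier spots); each group has 1 array. The authors' deposited value table holds log2 values with scale and centring not stated; each column correlated with the probe-centred levels used here at r = 0.9999 or more.

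Levels were log2 processed signal minus each array's 75th percentile, after leaving out control and outlier spots. Signals were averaged over spots of a probe, and 1 brightest probe stood for a gene name (34650 names). limma 3.58.1 in R 4.3.3 (lmFit, eBayes) was fitted to all genes whose probe the scanner software called above background on 2 or more of the fitted arrays, with Benjamini-Hochberg adjustment over all of them and a threshold of 0.05. HFSC fits had mouse type and plucking as terms, and population fits had population and age. Scripts were tested on simulated data. The probes of 1 keratin were left out of the sequence comparison, and their sequences are not reported here. Tables were made with Python 3.11.15 and pandas 2.3.3, and figures with matplotlib 3.10.9. Values by array, or the fact that an array was not well above background, were given in the text or plots for keratins called in any fit, for a list of well-known epidermal keratins, and for those past 4-fold in every pair of a comparison; others are given by counts or were named after their values were seen. The members, roles and gene lists were chosen with earlier results of these data known. Precision is limited by 1 array per group. Alternatives were other scalings, background correction, filters, probes, the authors' table and left-out arrays.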

Additional observations from a re-analysis of the deposited data

How the results depend on the processing

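All 25 keratin differences with a test that were followed through the alternatives (IFE or total epidermis against HFSC, IFE against total epidermis, plucking) kept their sign in each of their 352 alternative values. Many of these values could not change sign. For a keratin with 1 probe, other filters and the mean of all probes leave the difference as it was. The authors' table holds nearly the same levels. Differences not followed could turn with the probe. The plucking difference of Krt6b was -0.95 ± 0.45 by the brightest and 2.27 ± 1.18 by the other probe. That of Krt2 was -0.77 ± 0.46 and 1.62 ± 0.60. The other probes were dim on some arrays, and none of these passed. For plucking, 3 keratins passed with normexp and quantile scaling and 3 with only genes measured on all 8 arrays, where 0 passed otherwise. Leaving out each mouse type gave 0 keratins and 0 of all genes, so these omissions do not bear on the keratins alone. For IFE against HFSC, 6 keratins passed; without the filter on dim probes 3 did, with the plucked HFSC arrays added to the fit 3 did, and leaving out 1 array gave 2 to 4. For total epidermis against HFSC, 5 passed; median scaling gave 2, no filter 2, the added plucked HFSC arrays 3, and leaving out 1 array 0 to 3. The cause of these changes was not tested. The other alternatives, the authors' value table and the mean of all probes among them, stayed within 1.5 times the count, though the keratins called could differ. For total epidermis against HFSC, only genes measured on all 6 arrays gave 6 keratins, 3 of them among the 5. Krt10, Krt78 and Krt79 entered, and Krt6a and Krt19, not measured on all 6 arrays, were not tested. Normexp with quantile scaling also gave 6, of which 4 were among the 5. The remaining comparisons called 0 keratins under every alternative run. Median scaling moved the median difference of all genes by over 0.1 in several comparisons, to -0.21 for aged against young HFSC and to 0.21 for control against young HFSC.

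Leaving out single arrays of the population fits and swapping probes were chosen after seeing the data. Leaving out 1 of the 4 arrays of the fit of age in epidermis leaves no residual degrees of freedom, and this was not run. Of 52 keratins, 22 were measured on some arrays only, and a difference that includes an array below background is not exact. The plucking fit sets plucked against unplucked arrays of the same mouse type through its mouse type term; a block by replicate number could not be fitted, as each group has 1 array, numbered 1.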
